A study of Mus musculus with 8 samples.

Results

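Intergenic 5hmC peaks that lie close to genes were examined in the 6 GLIB-Seq libraries of the series. A peak was counted when its midpoint lay on an autosome, outside the span of every annotated gene, and 2 to 20 kb upstream of the nearest transcription start site (TSS) of a protein-coding gene in mm9. Of 948520 deposited peaks, 73073 met this rule. The libraries held 15935 of them in ESCs, 15024 in MEFs, 8316 in brain, 9102 in liver, 12469 in shGFP ESCs and 12227 in shSuz12 ESCs.

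The ESCs were E14 cells, an established mouse embryonic stem cell line, and the shGFP and shSuz12 libraries came from E14 cells that received a short hairpin RNA, directed at GFP as the control or at Suz12. The MEFs, brain and liver were from C57BL/6 mice, without a genetic change in the labels. Cell type and the source of the cells, the E14 line or C57BL/6 mice, cannot be told apart where ESC libraries are set against the others. The MEFs were fibroblasts labelled embryonic day 11, whereas the methods give a later day, and brain and liver were taken at 8 weeks. GLIB-Seq adds a glucose to 5hmC, couples biotin to it and sequences the DNA that is pulled down. Each condition had 1 library, so no test between conditions was possible and no spread between replicates is known. The lists give no read counts, so depth is unknown. Their lowest peak scores also differ, being 30 for brain, 30 for MEFs, 80 for liver, 80 for ESCs, 30.34 for shSuz12 and 50.02 for shGFP, where a score is taken as 10 times the negative log10 of the p-value from the peak caller. Exact (Clopper-Pearson) 95% intervals are given and cover counting error only. Expression was not analysed here, so the tissue labels were not checked against marker transcripts.

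5hmC is made from 5-methylcytosine by the TET dioxygenases and lies almost entirely at CpG dinucleotides. It is known from gene bodies and from distal regulatory elements such as enhancers, many of which lie upstream of the promoter of the gene they act on. Suz12 is a core subunit of Polycomb repressive complex 2, which methylates histone H3 at lysine 27 on developmental genes.

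The strongest upstream regions of 4 patterns are printed as examples. They were picked by score and need not be typical of these peaks. Peaks of all libraries that touched were joined into regions. The region with a peak in all 6 libraries and the best lowest rank of score lay upstream of Mical3, a monooxygenase that oxidizes actin, and the printed bases are chr6:121037798-121037997. The highest-scoring region with peaks in the 3 ESC libraries alone had Gm7347 as its nearest gene, at chr5:26397394-26397593. The highest-scoring region of MEFs alone lay upstream of Pmp22, which encodes a protein of peripheral myelin, at chr11:62928860-62929059. That of liver alone lay upstream of Ttpal, at chr2:163415036-163415235. Each sequence is 200 bases of the plus strand of mm9, from the genome reference, around the centre of the peak or of the part that all its libraries shared. Capitals mark CpG, the dinucleotide that can carry 5hmC.
Mical3, all 6 libraries: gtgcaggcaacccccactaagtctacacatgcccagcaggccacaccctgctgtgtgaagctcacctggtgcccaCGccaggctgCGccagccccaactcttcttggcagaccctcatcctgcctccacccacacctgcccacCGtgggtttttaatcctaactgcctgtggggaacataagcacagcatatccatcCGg
Gm7347, ESC libraries alone: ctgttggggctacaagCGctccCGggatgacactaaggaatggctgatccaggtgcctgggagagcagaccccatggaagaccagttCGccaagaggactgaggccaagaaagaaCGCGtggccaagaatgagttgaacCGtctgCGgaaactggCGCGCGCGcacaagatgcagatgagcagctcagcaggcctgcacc
Pmp22, MEFs alone: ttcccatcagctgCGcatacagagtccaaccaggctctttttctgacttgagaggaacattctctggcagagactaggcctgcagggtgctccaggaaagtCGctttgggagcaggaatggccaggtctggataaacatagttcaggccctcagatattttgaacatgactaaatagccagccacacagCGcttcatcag
Ttpal, liver alone: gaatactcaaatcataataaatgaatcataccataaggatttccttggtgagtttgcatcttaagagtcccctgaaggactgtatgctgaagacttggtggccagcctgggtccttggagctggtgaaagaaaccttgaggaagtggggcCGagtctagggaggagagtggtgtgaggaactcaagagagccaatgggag

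The Mical3 sequence held 4 CpG, that near Gm7347 held 11, that near Pmp22 held 3 and that near Ttpal held 1. All 5 consecutive pieces of 36 bases from each of the 4 sequences occurred once on the autosomes. Near-copies with mismatched bases, which the authors' mapping allowed, were not searched for. Whether reads map to these regions alone was therefore not tested. Near Mical3, the peak scored 3100 in ESCs, 643 in MEFs, 326 in brain, 2875 in liver, 445 in shGFP and 167 in shSuz12, which was above the score of 98.4% or more of the peaks of each list. Near Gm7347, the score was 395 in shSuz12, 1096 in shGFP and 2883 in ESCs. The single-library regions scored 619 in MEFs and 796 in liver.

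Upstream DNA carried more peaks than the genome on average in the 3 ESC libraries and fewer in MEFs, brain and liver. The upstream zone covered 185 Mb, or 7.72% of the sequenced autosomes. It held 9.29% of the autosomal peaks of ESCs (9.15 to 9.43%), 9.40% of those of shGFP (9.25 to 9.56%) and 8.85% of those of shSuz12 (8.70 to 9.0%). The share was 5.28% for brain (5.17 to 5.39%), 6.95% for MEFs (6.84 to 7.06%) and 6.99% for liver (6.85 to 7.13%). The ESC libraries, all of the same line, thus did not overlap the differentiated samples. This order was also found when peaks with a score of at least 80 were used in every library, with 8.02 to 9.30% in the ESC libraries and 3.33 to 6.99% in the others.

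Per length, the zone had 86.2 peaks per Mb in ESCs, 81.3 in MEFs, 44.99 in brain, 49.2 in liver, 67.5 in shGFP and 66.2 in shSuz12. Divided by the autosomal density of the same library, this was 0.684 for brain, 0.90 for MEFs and 0.905 for liver, and it was 1.15 for shSuz12, 1.2 for ESCs and 1.22 for shGFP. In every library the upstream zone was sparser than gene bodies and denser than intergenic DNA more than 20 kb from a TSS. The density was 0.767 of that on gene bodies in ESCs, 0.643 in MEFs, 0.391 in brain, 0.494 in liver, 0.813 in shGFP and 0.738 in shSuz12. In brain this ratio was 0.214 among peaks with a score of at least 80.

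Against far intergenic DNA, the excess was smallest in MEFs and brain. The ratio was 2.37 in shSuz12, 2.45 in shGFP, 2.64 in ESCs and 2.96 in liver, but 1.31 (1.29 to 1.33) in MEFs and 1.48 (1.45 to 1.52) in brain. The zone is richer in CpG than far intergenic DNA, with 8.62 against 6.90 CpG per kb. Counted per 1000 CpG, MEFs had 9.43 peaks in the zone and 9.0 far from genes, whereas ESCs had 10.01 and 4.73 and liver had 5.72 and 2.41. The zone was also compared with intergenic DNA at the same distances but on the downstream side of the nearest TSS. Upstream DNA was denser by 1.2 times in ESCs, 1.26 in MEFs, 1.09 in brain, 1.19 in shGFP and 1.19 in shSuz12, while in liver the ratio was 0.999 (0.958 to 1.04).

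**Figure D1:**
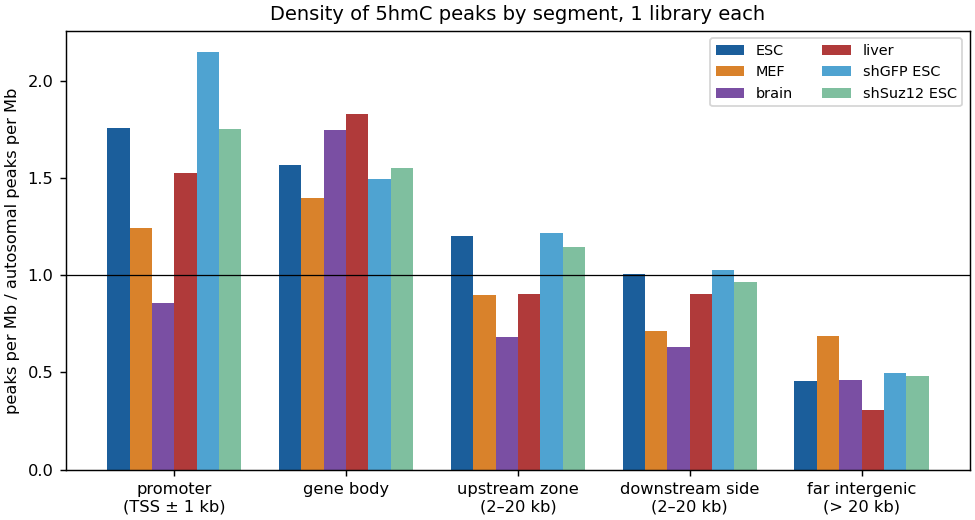
Bars give the peaks per Mb of each segment divided by the autosomal peaks per Mb of the same library, for 5 segments and 6 libraries with 1 library per condition; the line marks the autosomal density. In the upstream zone the 3 ESC libraries lie at 1.15 to 1.22, above the line, and MEFs, brain and liver lie at 0.684 to 0.905, below it.

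Within the zone, liver peaks gathered towards the TSS and MEF peaks away from it. Liver had 67.3 peaks per Mb at 2 to 4 kb and 41.2 at 18 to 20 kb, a ratio of 1.63 (1.49 to 1.79). MEFs had 76.4 and 93.3, a ratio of 0.820 (0.766 to 0.878). The other libraries changed little with distance, with ratios of 1.10 in ESCs, 1.11 in brain, 1.05 in shGFP and 1.08 in shSuz12. The slope in MEFs was found beside genes with high-CpG promoters (0.751, 0.674 to 0.838) and not beside those with low-CpG promoters (0.986, 0.873 to 1.12), whereas liver had it beside both, at 1.76 and 1.45.

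The limits of 2 and 20 kb cut through continuous profiles. In the kb just inside the near limit the density was 53.4 to 95.7 per Mb over the 6 libraries, and in the kb just outside, at 1 to 2 kb, it was 79.0 to 115. Liver had the largest step there, from 70.9 inside to 111 outside. At the far limit the kb inside held 39.8 to 92.8 per Mb and the kb outside 42.9 to 92.2.

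Genes with high-CpG promoters had the densest upstream DNA in each library. In ESCs the zone held 120 peaks per Mb beside high-CpG, 97.9 beside intermediate-CpG and 55.6 beside low-CpG promoters. The ratio of high to low was 1.73 in MEFs, 1.78 in brain, 2.01 in liver, 2.11 in shGFP, 2.13 in shSuz12 and 2.15 in ESCs. The orientation of the neighbouring gene went with much smaller differences, the ratio of divergent to tandem neighbours being 1.04 to 1.06 in ESCs, MEFs, shGFP and shSuz12, 0.926 in brain and 0.911 in liver.

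**Figure D2:**
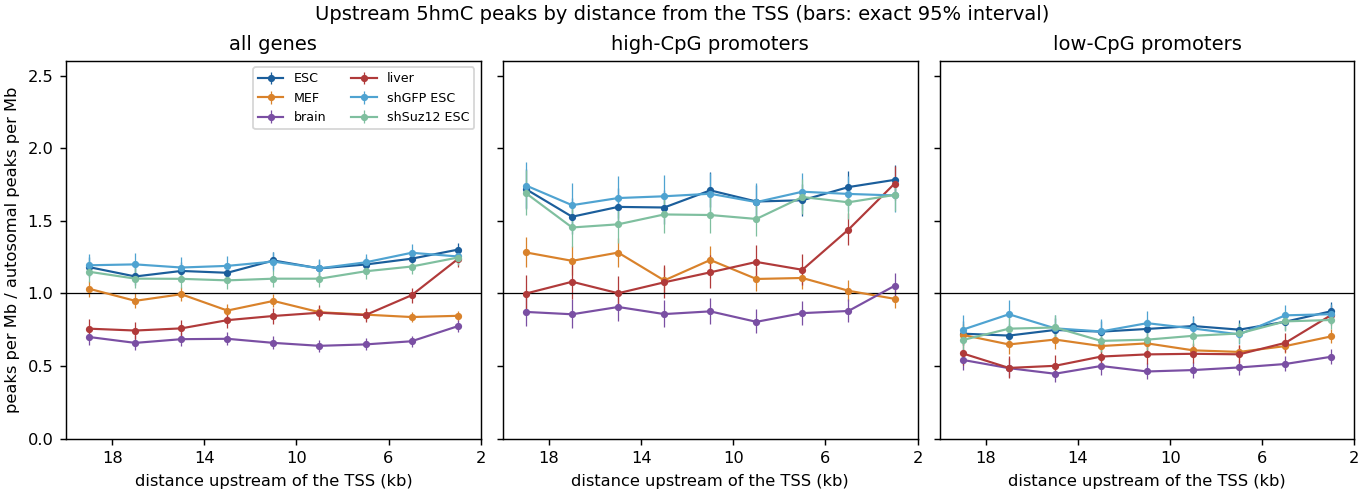
Points give upstream peaks per Mb, divided by the autosomal peaks per Mb of the library, in 2 kb steps of distance from the TSS, for all genes and for those with high-CpG or low-CpG promoters; bars are exact 95% intervals. Over all genes liver climbs from 0.758 at 18 to 20 kb to 1.24 at 2 to 4 kb, MEFs go from 1.03 to 0.846, and the ESC libraries stay above 1.

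The upstream peaks were short and richer in CpG than the zone around them, as were peaks elsewhere. In ESCs, peaks of gene bodies and of far intergenic DNA had medians of 854 and 822 bp and of 20 CpG per kb each. Their median width was 826 bp in ESCs, 797 in MEFs, 1005 in brain, 957 in liver, 764 in shGFP and 559 in shSuz12. In the 500 bp around the midpoint the median was 18 CpG per kb in ESCs and shGFP, 16 in MEFs, brain and shSuz12, and 14 in liver, against 8.62 over the zone. CpG content also went with the number of libraries that shared a peak. MEF peaks found in no other library had a median of 12 CpG per kb and those found in all 6 libraries had 20, and the same medians were 12 and 20 in liver, 14 and 20 in brain, and 16 and 20 in ESCs.

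Sharing between cell types upstream of genes depended on the direction of the comparison. ESC upstream peaks met a MEF or brain peak less often than ESC peaks of gene bodies or far intergenic DNA did, whereas MEF, brain and liver upstream peaks met an ESC peak about as often as their gene body peaks. Of the upstream peaks of ESCs, 40.5% (39.8 to 41.3%) shared 1 bp or more with a MEF peak, 27.4% (26.7 to 28.1%) a brain peak and 28.1% (27.4 to 28.8%) a liver peak. For ESC peaks on gene bodies these shares were 48.2%, 52.1% and 46.6%, and far from genes 52.6%, 34.7% and 21.3%. Brain itself had 115 peaks per Mb on gene bodies and 44.99 in the zone, and the part of this in the shares was not tested. When a score of at least 80 was asked of every library, 18.2% of the ESC peaks met a MEF peak, 6.16% a brain peak and 28.1% a liver peak, so that liver ranked above MEFs at this limit and below them without it. The limit removed no liver peak, as that list starts at 80, but left 73991 of 216254 autosomal MEF peaks. In the top 50% of each list by score the shares were 32.7% for MEFs and 20.6% for liver.

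In the other direction, 50.3% of the upstream peaks of brain overlapped an ESC peak, beside 48.6% on gene bodies and 36.3% far from genes. For liver these shares were 46.7%, 47.8% and 40.3%, and for MEFs 43.4%, 43.7% and 28.1%. Between the adult tissues, 33.4% of brain peaks met a liver peak and 30.5% of liver peaks met a brain peak. The library of the same line was closest to ESCs, with 74.6% (73.8 to 75.3%) of shGFP peaks and 65.0% of shSuz12 peaks overlapping an ESC peak. Strong peaks were shared more often. In the lowest quartile of ESC scores, 31.8% met a shGFP peak and 17.2% a brain peak, and in the highest quartile 89.6% and 45.2% did.

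**Figure D3:**
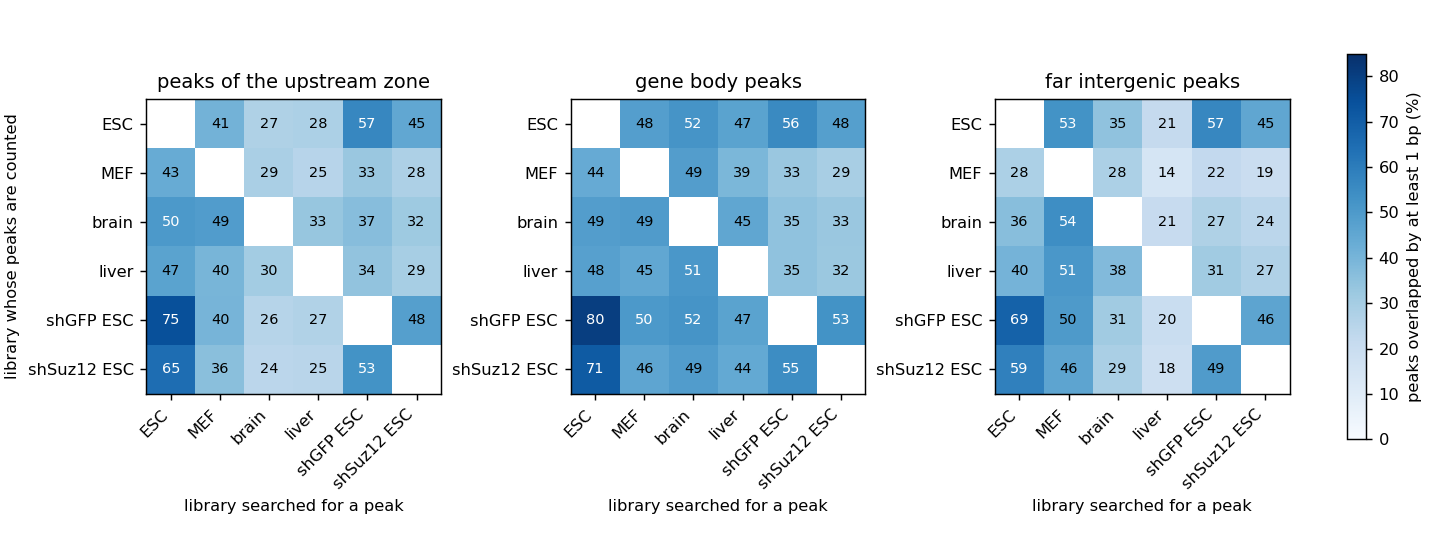
Each cell gives the percentage of the peaks of one library (row) that overlap a peak of another library (column) by at least 1 bp, for peaks of the upstream zone, of gene bodies and of far intergenic DNA. ESC peaks overlap a brain peak in 27.4% of cases in the zone, 52.1% on gene bodies and 34.7% far from genes, and brain peaks overlap an ESC peak in 50.3%, 48.6% and 36.3%.

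Joined over the 6 libraries, the upstream peaks formed 33151 regions. A region can be a chain of touching peaks, so the libraries in it need not all overlap one another. Dnmbp, with 8 upstream peaks in ESCs and 10 in MEFs, had 1 region. Of these, 46.8% had a peak in 1 library and 796, or 2.40%, had a peak in all 6, which compares with 5.14% on gene bodies and 1.74% far from genes. Among the 28932 regions with a peak in ESCs, MEFs, brain or liver, 4.66% had a peak in all 4 and 58.2% in 1 of them. ESCs alone accounted for 20.9% of these regions, MEFs alone for 20.1%, liver alone for 10.3% and brain alone for 6.92%. On gene bodies, by contrast, ESCs alone made up 10.54% of the regions and brain alone 11.8%, and far from genes they made up 11.6% and 10.6%.

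Knockdown of Suz12 was compared with shGFP to see whether upstream 5hmC depended on the Polycomb subunit. Of the shGFP upstream peaks, 52.1% (51.2 to 52.9%) had no shSuz12 peak, close to the 49.5% found over all autosomal shGFP peaks. The share was 47.3% on gene bodies, 47.4% at promoters and 53.9% far from genes. Against unmodified ESCs, without the knockdown in either library, 25.4% of the shGFP upstream peaks had no ESC peak and 43.3% of the ESC upstream peaks had no shGFP peak. For shGFP peaks without an ESC peak the share was 19.9% on gene bodies, 23.1% at promoters and 31.4% far from genes. For ESC peaks without a shGFP peak it was 44.3%, 33.3% and 43.5%. In the reverse direction of the knockdown comparison, 47.3% of shSuz12 upstream peaks had no shGFP peak. This compares with 45.3% on gene bodies, 33.0% at promoters and 50.6% far from genes. Among 7563 genes with an upstream peak in either library, 2892 had fewer in shSuz12, 2800 had more and 1871 had as many. Genes with fewer and genes with more peaks were thus nearly equal in number. The loss went with score, as 29.8% of the shGFP peaks of the lowest quartile and 74.0% of those of the highest had a shSuz12 peak. With a score of at least 80 in both libraries the loss was 82.5%, since 15.4% of shSuz12 upstream peaks and 55.5% of shGFP ones reach that score. Counts of peaks do not measure the DNA covered. Upstream peaks covered 10.95 Mb in shGFP and 7.19 Mb in shSuz12, with median scores of 86.2 and 52.4. All autosomal peaks covered 120.9 Mb in shGFP and 83.3 Mb in shSuz12. The shSuz12 list also starts at a lower score, and the part of this in the counts was not tested.

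An upstream zone belonged to 16034 of 21418 autosomal protein-coding genes, with a median length of 13.2 kb. The genes with at least 1 upstream peak numbered 6924 (43.2%) in ESCs, 6557 (40.9%) in MEFs, 4718 (29.4%) in brain, 4588 (28.6%) in liver, 6054 (37.8%) in shGFP and 6099 (38.0%) in shSuz12. In all, 10354 genes had a peak in some library, 1395 had one in each of the 6, and 5680 had none. With a score of at least 80 the number was 3088 in MEFs, 917 in brain and 1544 in shSuz12. Genes with an upstream peak also more often had a peak within 1 kb of the TSS. Among genes with a zone of at least 10 kb, 43.0% of those with an upstream peak and 18.6% of those without had a promoter peak in ESCs, and the shares were 42.2 and 14.5% for liver, 41.4 and 16.1% for MEFs, and 29.6 and 11.6% for brain.

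Sipa1l2, of a family of Rap GTPase-activating proteins, was among the 5 genes with the most upstream peaks in 4 libraries. It lies at chr8:127941963-128016610 and had 10 peaks in ESCs, 10 in MEFs, 6 in brain, 8 in liver, 9 in shGFP and 10 in shSuz12, so that its upstream DNA was marked along its length in each of them. Chromosome 8 had 1.65 to 1.68 times the density that the zone had over all autosomes in the 3 ESC libraries and 1.02 to 1.16 times in the others, and the part of this in the counts of single genes was not tested. Without chromosome 8 the ESC density ratio to the autosomes was 1.21. Irf2bp2, a transcriptional corepressor, is on the same chromosome and had the most regions shared by all 6 libraries, with 4. Pex26, needed for import into peroxisomes, had 3 such regions and 4 to 6 peaks in each library. Gm5045 and BC017612 also had 3.

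In ESCs the highest count was 10, reached by 5 genes. Elsewhere genes were tied at the fifth highest count, 6 in MEFs, 8 in brain, 7 in liver, 8 in shGFP and 6 in shSuz12, and those whose peaks covered more bp are named. Besides Sipa1l2 they included Ankrd9, Atp2a3, a calcium pump of the endoplasmic reticulum, and the tyrosine kinase Src. Src had 10 peaks in ESCs, 4 in MEFs, 4 in brain, 1 in liver, 5 in shGFP and 0 in shSuz12, and Atp2a3 had 10, 4, 3, 2, 7 and 4 in the same order. Neither was marked to the same extent in liver. In shGFP the leaders were Bcar1, a docking protein of focal adhesions on chromosome 8, with 10 peaks, followed by Sipa1l2, Sulf2, a sulfatase that edits heparan sulfate, E030010N08Rik and Dnmbp with 9 each.

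In MEFs, Tanc1, a scaffold protein of synapses, had the highest count with 11 upstream peaks, against 5 in ESCs, 0 in brain and 2 in liver. Dnmbp, a guanine nucleotide exchange factor, the small GTPase gene Rasl11b, Sipa1l2 and Pcnx followed with 10 each. Regions found in MEFs alone were most numerous upstream of Ccdc54 and Tnfsf4, with 7 each. Tnfsf4, a ligand of the TNF family, had 9 peaks in MEFs, 1 each in ESCs, brain, liver and shGFP, and 0 in shSuz12. Its zone was therefore marked almost only in fibroblasts.

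In brain, Tgfbi, a secreted matrix protein induced by TGF-beta, led with 9 peaks and had 9 in MEFs as well. Dnmbp, the cell cycle repressor E2f8, BC034090 and the small GTPase Ralb followed with 8 each. Vstm2b and Vldlr had the most regions found in brain alone, with 5 each. Vldlr, a receptor for reelin, had 5 peaks in brain, 2 in MEFs and 0 in the other 4 libraries.

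In liver, 7 genes had 9 peaks, of which Tgm2, a transglutaminase, Oaf, Dscr3, Zcchc2 and Ide, an insulin-degrading protease, covered the most bp. Zcchc2 had 9 peaks in liver, 2 in ESCs, 3 in MEFs, 2 in brain, 0 in shGFP and 1 in shSuz12, and 5 of its regions were found in liver alone. Adam24 and Nudt7, a peroxisomal hydrolase of coenzyme A, had 6 regions each in liver alone. The ESC libraries together had the most regions of their own upstream of 5730419I09Rik, with 5, and Ocm, a calcium-binding protein, with 4.

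From shGFP to shSuz12 the largest differences went both ways. Zfp710 had 4 peaks in shGFP and 13 in shSuz12, the highest count of any library, and 4 in ESCs, 2 in liver and 0 in MEFs and brain. Pmepa1, which restrains TGF-beta signalling, had 4 and 11, and H6pd, a dehydrogenase of the endoplasmic reticulum, had 3 and 9. Tmem211, with 5 and 11, was also among the 5 highest in shSuz12. In the other direction Gm11084 had 7 and 1, Dcaf4, a substrate receptor of a ubiquitin ligase, had 7 and 1, and Dnmbp had 9 and 4. Peak counts depend on how wide peaks were called, and the shSuz12 peaks were the narrowest of the 6 libraries. At Tmem211 the bp covered by upstream peaks fell, from 7362 in shGFP to 6802 in shSuz12, although the count rose. The bp covered went from 4839 to 5499 at Pmepa1, from 3194 to 7300 at Zfp710 and from 1996 to 5141 at H6pd.

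Genes that define a cell type had denser upstream peaks in that cell type for 4 of the 5 lists that belong to a profiled cell type, and neuronal genes in brain did not. The 4 other lists have no library of their own. Counts and densities are given beside all genes with a zone, and no list was tested. The shares of genes with a peak, unlike the densities, are not corrected for zone length. The median zone was longer than over all genes for pluripotency, fibroblast and matrix, and neuronal genes. It was also longer for developmental regulators and for TET, DNMT and Polycomb genes. It was shorter for the other lists. Pluripotency factors had 195 upstream peaks per Mb in ESCs, 2.26 times the density over all genes, with ratios of 2.30 in shGFP and 2.35 in shSuz12. In MEFs the ratio was 0.934, in brain 0.643 and in liver 0.514. Of the 23 such genes with a zone, 17, or 73.9%, had a peak in ESCs beside 43.2% of all genes, and 3, or 13.0%, in liver beside 28.6%. Sall4, a zinc finger factor of stem cells, had 8 peaks in ESCs, 3 in MEFs, 0 in brain, 0 in liver, 6 in shGFP and 7 in shSuz12. Lefty2, a secreted inhibitor of Nodal, had 6, 1, 0, 0, 6 and 7, and Lefty1, its neighbour of the same function, had 8, 1, 2, 1, 3 and 5. Pou5f1, which encodes the stem cell factor Oct4, had 1, 0, 0, 0, 4 and 1.

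Hepatocyte genes had 168 peaks per Mb in liver, 3.41 times all genes, against 0.604 in brain, 0.760 in MEFs and 1.004 in ESCs. In liver 26 of the 39 with a zone had a peak, which is 66.7% beside 28.6% of all genes. Pck1, an enzyme of glucose synthesis, had 7 peaks in liver, 2 in ESCs, 3 in MEFs, 1 in brain, 1 in shGFP and 1 in shSuz12. Trf, which encodes the iron carrier transferrin, had 6 in liver and 1, 3, 3, 4 and 3 elsewhere. G6pc, which releases glucose from liver, had 4 in liver but 8 in ESCs. Alb, encoding serum albumin, had 5 peaks in liver and 0 in the other 5 libraries.

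Fibroblast and matrix genes had 213 peaks per Mb in MEFs, 2.62 times all genes, and 25 of 27, or 92.6%, had a peak beside 40.9% of all genes, with a median of 3. The ratio was 1.72 in brain, 0.90 in ESCs and 0.492 in liver. Tgfbi has been given above. Col1a1, a chain of type I collagen, had 6 peaks in MEFs, 6 in ESCs, 3 in brain, 0 in liver, 5 in shGFP and 3 in shSuz12. Sparc, a matrix glycoprotein, had 5 in MEFs but 7 in ESCs, 1 in brain and 0 in liver. Single members thus did not all follow the list.

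In brain, glial and neuronal genes had different densities. Glial and myelin genes had a ratio of 2.86 in brain, 1.24 in ESCs, 1.14 in MEFs and 0.580 in liver, and 7 of 12, or 58.3%, had a peak in brain beside 29.4% of all genes. As many or more had one in the ESC libraries and MEFs, with 7 in ESCs, 8 in MEFs, 7 in shGFP and 8 in shSuz12. These were 58.3% beside 43.2% of all genes in ESCs and 66.7% beside 40.9% in MEFs. They were 58.3% beside 37.8% in shGFP and 66.7% beside 38.0% in shSuz12. In liver 2 did, which is 16.7% beside 28.6%. Aldh1l1, an astrocyte enzyme, had 3 upstream peaks in brain and 4 in ESCs, and Slc1a3, an astrocyte glutamate transporter, had 3 in brain, ESCs, MEFs and shGFP. Mbp, a myelin protein, had 2 in each of these libraries. Neuronal genes had a ratio of 0.725 in brain, and 14 of 39, or 35.9%, had a peak beside 29.4% of all genes. Nefl, a neurofilament subunit, had 3 peaks in brain and 3 in ESCs, Mapt, encoding tau, had 1 and 4, and Cacna1a, a calcium channel subunit, had 1 and 3. With a score of at least 80, a limit applied to the lists after seeing the data, the ratio in brain was 5.96 for the glial list and 0.321 for the neuronal list, which rest on 5 peaks and 1 peak.

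Developmental regulators had upstream peaks most often in the ESC libraries and least often in liver. Of the 45 with a zone, 4 had a peak in liver, 16 in brain, 20 in MEFs, 28 in shSuz12, 32 in ESCs and 34 in shGFP. These were 8.89% beside 28.6% of all genes in liver, 35.6% beside 29.4% in brain, 44.4% beside 40.9% in MEFs, 62.2% beside 38.0% in shSuz12, 71.1% beside 43.2% in ESCs and 75.6% beside 37.8% in shGFP. The density ratio to all genes was 0.207 in liver, 0.616 in brain, 0.646 in MEFs, 1.18 in ESCs, 1.35 in shSuz12 and 1.75 in shGFP. In brain and MEFs the share was thus above that of all genes while the density was below theirs. The part of the longer zones in these shares was not tested. Pax7, a factor of muscle progenitors, had 7 peaks in ESCs, 1 in MEFs, 0 in brain, 0 in liver, 8 in shGFP and 6 in shSuz12. En1, a homeobox factor of the midbrain and limb, had 6, 0, 0, 0, 5 and 5, and its relative En2 had 3, 1, 2, 0, 5 and 3. Not all members followed this order. Kdr, a receptor for vascular endothelial growth factor, had 0 in ESCs, 5 in MEFs, 1 in brain, 0 in liver, 0 in shGFP and 1 in shSuz12.

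Genes of the TET, DNMT and Polycomb proteins had ratios of 1.33 in liver, 1.35 in MEFs, 1.86 in brain, 2.24 in ESCs, 2.33 in shGFP and 2.65 in shSuz12, and 16 of 19, or 84.2%, had a peak in ESCs beside 43.2% of all genes. Tet3, a TET dioxygenase, had 7 peaks in brain and 6 in MEFs, and 2 in each ESC library. Jarid2, a partner of Polycomb repressive complex 2, had 7 in shSuz12 and 5 in shGFP. Ribosomal protein genes, taken as widely expressed genes, had ratios of 0.631 in brain to 2.01 in shGFP, and Rps14, Rpl38 and Rpl21 had 5, 6 and 4 peaks in ESCs. Eef1a1, a translation factor expressed in most cells, had 4 upstream peaks in ESCs, 5 in MEFs, 2 in brain, 4 in liver, 3 in shGFP and 2 in shSuz12.

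Olfactory receptor genes were the emptiest list in each of the 6 libraries. Their ratio to all genes was 0.058 in ESCs, 0.052 in MEFs, 0.035 in brain, 0.028 in liver, 0.064 in shGFP and 0.058 in shSuz12. Of 1059 such genes with a zone, 42, or 3.97%, had an upstream peak in ESCs beside 43.2% of all genes. In liver 9 did, or 0.85% beside 28.6%. Their zones were shorter, with a median of 8.63 kb beside 13.2 kb over all genes. Olfr1393 was the exception with the most peaks, having 3 in ESCs, 5 in MEFs, 4 in brain, 3 in liver, 1 in shGFP and 3 in shSuz12. Olfr1414 and Olfr71 had 1 or 2 where they had any.

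**Figure D4:**
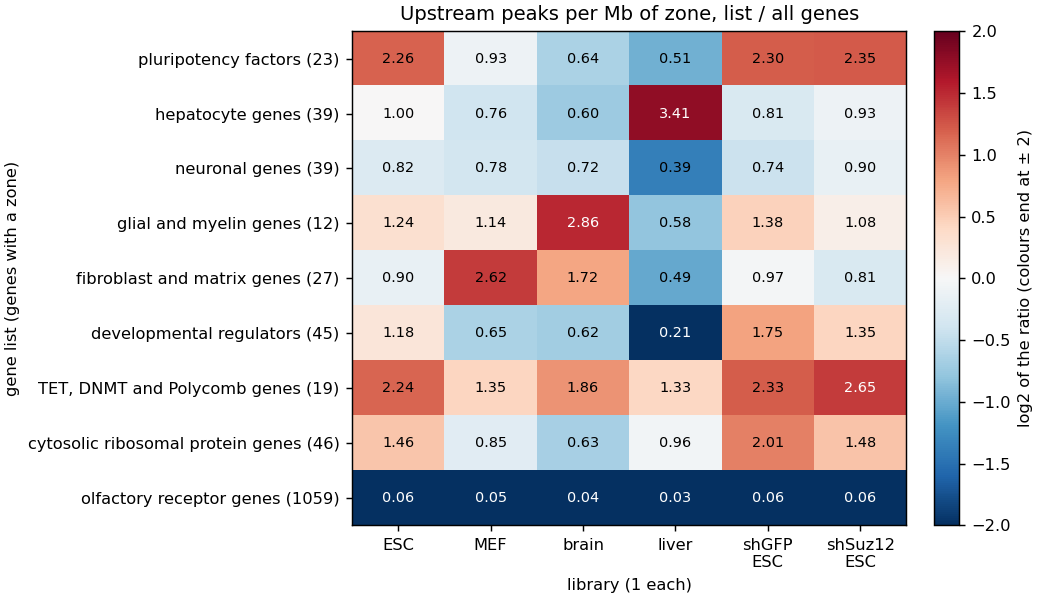
Each cell gives the upstream peaks per Mb of zone of a gene list divided by that of all genes in the same library, with colour on a log2 scale and the number of genes with a zone in brackets. Ratios above 2 are found for pluripotency factors in the 3 ESC libraries (2.26 to 2.35), hepatocyte genes in liver (3.41), fibroblast and matrix genes in MEFs (2.62), glial and myelin genes in brain (2.86), TET, DNMT and Polycomb genes in the ESC libraries (2.24 to 2.65) and ribosomal protein genes in shGFP (2.01).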

How the data were processed

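5hmC was profiled by GLIB-Seq in 6 libraries, 1 per condition. The authors mapped reads to mm9 with Bowtie 0.12.7, allowing 2 mismatches and unique hits, removed redundant reads and called peaks with MACS 1.4.1 library by library (CASAVA 1.8 is also named in the submitters' processing notes). The control and threshold of the calls are not given in the sources used here. The deposited peak lists hold a start, an end and a score from MACS, used here as 10 times the negative log10 of the p-value. Unique mapping leaves repeats without peaks, and mappability was not analysed here. RNA-Seq libraries were not analysed here.

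Peak midpoints were placed on the GENCODE M1 annotation (NCBIM37, equal to mm9) over 19 autosomes. Promoters are the TSS ± 1 kb, and far intergenic DNA lies more than 20 kb from the nearest protein-coding TSS. Gene bodies here mean protein-coding genes without their promoters. DNA covered only by other annotated genes counted neither as gene body nor as intergenic. Lengths exclude assembly gaps. Promoters were classed by CpG from 700 bp upstream to 200 bp downstream of the TSS (high: GC of at least 55% and observed to expected CpG above 0.75; low: ratio under 0.48). Shares have exact 95% intervals. scipy 1.17.1, pandas 2.3.3, numpy 2.4.6 and matplotlib 3.10.9 were run under Python 3.11.15. The placement, the density ratio and the overlap shares were tested on simulated data, and the 95% intervals were not.

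Named genes were the 5 with most upstream peaks in each library, the 3 largest falls and 3 largest rises after knockdown, the 5 with most regions in all 6 libraries, the 2 with most regions in MEFs, brain, liver or the ESC libraries alone, and up to 3 members per gene list, ties by bp covered. Pou5f1, Alb, Eef1a1 and Kdr were added, after their values were seen, as examples that the study shows. Printed regions were taken outside chromosome 18. The region of all 6 libraries had the best lowest rank of score, and the others had the highest score of their pattern. Some genes and a region that these rules name are not reported here. The members, lists and rules were chosen with earlier results of these data known. Alternatives were the top 50% of peaks by score, a score of at least 80, bp covered, peaks wholly inside a segment, TSS of every transcript, overlap of at least 50%, equal list sizes, and leaving out chromosome 8.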

Additional observations from a re-analysis of the deposited data

How the results depend on the processing

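Of 132 recomputed values, 71 stayed inside the 95% interval of the reported value or, for numbers of genes, within 1.5 times it. The other 61 moved further, and no density ratio changed direction. Some of the 71 could not change. A score of at least 80 removes no peak from the ESC and liver lists, which start at 80, and equal list sizes were set by the liver list. The counting intervals are narrow because they rest on large numbers of peaks. Under each of the 7 alternatives run on density the upstream zone stayed sparser than gene bodies and denser than far intergenic DNA in each of the 6 libraries. Among the top 50% of each list by score, the density ratio to gene bodies was 0.698 in ESCs, 0.588 in MEFs, 0.305 in brain, 0.40 in liver, 0.790 in shGFP and 0.706 in shSuz12. There the density ratio to far intergenic DNA was 2.73 in ESCs, 1.27 in MEFs, 3.14 in liver and 2.43 in shSuz12. There the share of ESC upstream peaks with a peak elsewhere was 32.7% for MEFs, 20.8% for brain and 20.6% for liver. There the loss after knockdown was 59.2%. By bp covered, the density ratio to gene bodies was 0.701 in ESCs, 0.595 in MEFs, 0.343 in brain, 0.421 in liver, 0.775 in shGFP and 0.714 in shSuz12. With peaks wholly inside a segment, the density ratio to gene bodies was 0.725 in ESCs, 0.613 in MEFs, 0.358 in brain, 0.449 in liver, 0.773 in shGFP and 0.708 in shSuz12. There the density ratio to far intergenic DNA was 2.47 in ESCs, 1.23 in MEFs, 1.36 in brain, 2.68 in liver, 2.30 in shGFP and 2.27 in shSuz12. With assembly gaps counted in the lengths, an alternative chosen after seeing the data, the density ratio to far intergenic DNA was 2.81 in ESCs, 1.39 in MEFs, 1.58 in brain, 3.15 in liver, 2.61 in shGFP and 2.52 in shSuz12. With a score of at least 80, the density ratio to gene bodies was 0.567 in MEFs, 0.214 in brain and 0.627 in shSuz12. There the density ratio to far intergenic DNA was 1.27 in MEFs, 1.43 in brain, 2.5 in shGFP and 2.54 in shSuz12. There the share of ESC upstream peaks with a peak elsewhere was 18.2% for MEFs and 6.16% for brain, and stayed at 28.1% for liver, so the order of MEFs and liver turned round. There the loss after knockdown was 82.5%. There genes with an upstream peak numbered 3088 in MEFs, 917 in brain and 1544 in shSuz12. Where both peaks had to overlap by 50% or more of their length, the share of ESC upstream peaks with a peak elsewhere was 28.2% for MEFs, 18.3% for brain and 17.8% for liver. There the loss after knockdown was 68.9%. Fewer peaks enter under a score limit, and a stricter overlap can only lower sharing; beyond this the cause was not tested. No paired analysis was possible because there is a single library for every condition. The unknown depth and the unequal lowest scores limit each comparison between libraries.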
